A study of Mus musculus with 8 samples.

Results

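Synapses that are removed from the developing cortex are engulfed by glia. This account covers 9 genes of that machinery in nuclei of mouse primary visual cortex (V1). They were chosen by name: the receptors Megf10, Megf11, Mertk, Axl and Tyro3, the bridging ligands Gas6 and Pros1, the adaptor Gulp1 and the lipid transporter Abca7. Earlier results of these data were known when the choice was made. All 9 were found among the 26711 features of the count matrix, which held 102330 nuclei in 20 deposited cell types. All mice were GRfl/fl, so that both copies of Nr3c1, which encodes the glucocorticoid receptor, had loxP sites and could be deleted by Cre. All received an AAV2/5 vector at birth, driven by the astrocyte promoter GfaABC1D. In GR-KO mice the vector encoded Cre and in GR-Con mice the inactive ΔCre, each with a membrane EGFP. Mice were kept under normal rearing (NR) or dark rearing (DR) and V1 was taken at postnatal day 21. Each genotype under each rearing, 4 groups in all, had 1 male and 1 female library, and a library is called by its group and its sex. Nuclei were sorted as positive for DRAQ5, a DNA dye, and negative for GFP, as the study's methods state. The labels give only the DRAQ5 sort, and the EGFP of the vector is targeted to the membrane, so how far the gate removed transduced nuclei is not known. EGFP was counted at 64 to 192 UMIs in the astrocytes of each of the 8 libraries. Which astrocyte nuclei had lost the receptor is not given by the labels, so a GR-KO level is that of all sorted astrocyte nuclei of those mice.

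Engulfment starts when a cell or synapse exposes phosphatidylserine on its surface. The secreted proteins Gas6 and Pros1 bind this lipid and bridge it to TAM receptors, a family of receptor tyrosine kinases. Gas6 is a ligand of Tyro3, Axl and Mertk, and Pros1 of Tyro3 and Mertk. Megf10 and Megf11 are related transmembrane proteins with repeated EGF-like domains. Megf10, Gulp1 and Abca7 have counterparts in an engulfment pathway known from nematodes, in which a receptor, an adaptor and an ABC transporter act together. In the brain, Mertk and Megf10 are best known as receptors by which astrocytes take up synapses, and Mertk is also a receptor of microglia.

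The members lie on separate chromosomes, apart from Tyro3 and Mertk, which are both on chromosome 2. In GENCODE vM21 on GRCm38, Mertk spans chr2:128698956-128802894 and Tyro3 chr2:119797733-119818104, both on the forward strand. Axl spans chr7:25757273-25788705 and Gas6 chr8:13465374-13494490, both on the reverse strand. The other members are on the forward strand, Megf10 at chr18:57133090-57297467, Megf11 at chr9:64385626-64709205, Pros1 at chr16:62854307-62929346, Gulp1 at chr1:44551511-44796838 and Abca7 at chr10:79996494-80015572. Gulp1 overlaps 4 other annotated genes (Gm37626, Gm16102 and Gm38110 on its own strand and 4930521E06Rik on the other), and Mertk overlaps Gm23172 on its own strand, so that reads could be split between them.

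Libraries held 9517 to 15161 nuclei and 168632129 to 288774016 UMIs. The deposited names were checked on 34 marker genes, of which 34 were highest in the type they mark. The study named its clusters by known marker genes, so this is not an independent check. Microglia (Micro) were uneven between libraries. They had 573 to 948 nuclei in 5 libraries, but 2 in the NR GR-Con male and 4 each in the NR GR-KO male and the DR GR-Con female. Micro therefore entered no comparison of groups, and its levels are given over those 5 libraries. In the same 3 libraries without enough Micro, 0 astrocyte nuclei held under 2000 UMIs, against 2 to 16 in each of the others. The cause was not tested. Between 6 and 7 libraries had 10 or more nuclei of smooth muscle cells and pericytes (SMC-Peri, 6), endothelial cells (Endo, 7) and vascular leptomeningeal cells (VLMC, 7), and chandelier cells (ChC), with 70 nuclei in all, reached 10 in only 3 libraries. The L5 pyramidal tract neurons (L5PT) of the NR GR-KO female library were only 59 nuclei. Barcode sequences that occurred in more than 1 library made up 2452 nuclei (2.40%). The targeted gene Nr3c1 was counted in astrocytes at 221 to 231 CPM (UMIs per 1000000 UMIs of the same cell type and library) in NR GR-Con and at 268 to 284 CPM in NR GR-KO. In DR it stood at 207 to 263 CPM in GR-Con and at 274 to 275 CPM in GR-KO. These counts cover the whole gene and not the loxP-flanked part, so they check nothing about its loss. Cre was counted in the astrocytes of all 4 GR-KO libraries (43 to 86 UMIs) and with 0 UMIs in those of the 4 GR-Con libraries. It was not limited to astrocytes: in the GR-KO libraries a Cre UMI was seen in 4.59% of Astro nuclei (7.16 CPM, median 6394 UMIs per nucleus) and in 5.83% of the deeper L4 nuclei (2.85 CPM, median 20516 UMIs), but in 0.153% of OPC nuclei (0.224 CPM, median 6380 UMIs).

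The bases before the start of the genes on which the results below turn are shown here because the deleted receptor binds DNA. They are RefSeq sequence on GRCm38.p6, forward strand, in the windows chr2:128698665-128698914 for Mertk, chr10:79996244-79996493 for Abca7 and chr1:44551421-44551510 for Gulp1.

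Mertk: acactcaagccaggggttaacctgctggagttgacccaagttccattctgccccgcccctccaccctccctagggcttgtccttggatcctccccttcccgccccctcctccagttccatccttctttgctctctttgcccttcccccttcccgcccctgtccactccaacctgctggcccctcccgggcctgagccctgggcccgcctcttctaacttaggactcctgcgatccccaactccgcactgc

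Abca7: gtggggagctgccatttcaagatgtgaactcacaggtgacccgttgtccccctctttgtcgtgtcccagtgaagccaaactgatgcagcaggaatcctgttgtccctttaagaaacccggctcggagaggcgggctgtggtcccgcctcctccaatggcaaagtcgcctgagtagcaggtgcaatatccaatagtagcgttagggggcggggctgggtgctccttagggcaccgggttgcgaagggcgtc

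Gulp1: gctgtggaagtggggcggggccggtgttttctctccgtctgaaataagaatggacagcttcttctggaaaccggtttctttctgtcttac

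The windows were searched on both strands for AGAACA, the 6-base recognition hexamer of the receptor, which would be set in capitals. Of the Gulp1 window only the 90 bases before its GENCODE start are printed, since RefSeq places its start at 44551671, and the Mertk window ends before the RefSeq start at 128698915. Whole windows of 250 bases before the RefSeq start were searched for 7 of the 9 members, and the hexamer was in 0 of these 7 windows. It was in 5284 of 32851 windows of this length over all genes (16.1%). The absence of these letters from so short a window says nothing about binding elsewhere.

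Levels of each member differed widely between cell types. The colour plot over 20 types shows for each gene where it was high. Of the 9 members, 3 had a cell type that stood above the second type in every library and passed an exact sign-flip permutation test over libraries, two-sided and adjusted over the 9 members by Benjamini-Hochberg. These were Megf10 in astrocytes (Astro), Megf11 in oligodendrocyte progenitors (OPC) and Tyro3 in oligodendrocytes (Oligo). The types of each pair were picked by the mean CPM of the same libraries, so the test is not independent of that choice. A pair with Micro rested on 5 libraries, where the smallest exact p is 0.0625, so Mertk, Gas6 and Pros1 could not pass. Over all 171 neighbouring pairs in the orders of the 9 genes, 13 had ranges over libraries that did not overlap, and 0 passed the same test adjusted over the 171. The smallest exact p that 8 libraries allow, 0.0078125, became 0.191 in that adjustment, so the 0 cannot show that neighbours are alike.

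**Figure D1:**
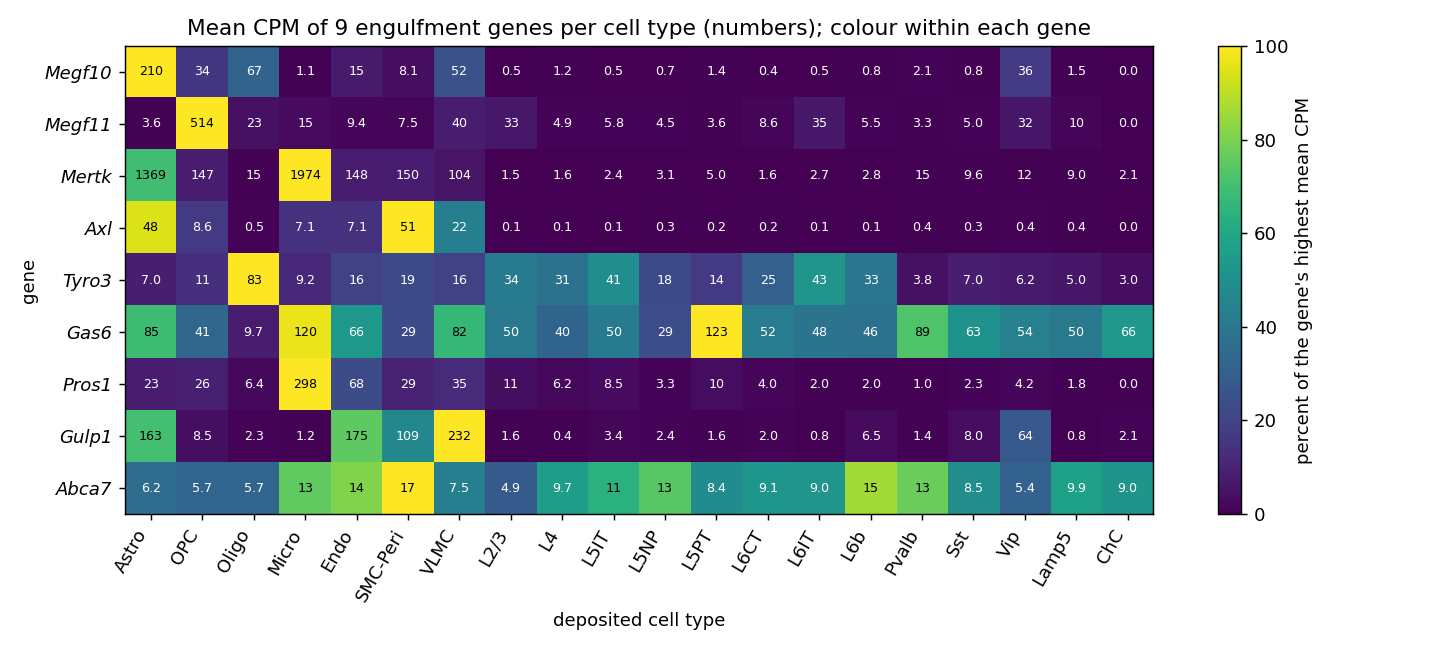
Mean CPM over libraries with at least 10 nuclei of the 9 genes (rows) in the 20 deposited cell types (columns), with the colour as percent of the highest mean of the same gene; colours cannot be compared between genes. Megf10 was highest in Astro (210), Megf11 in OPC (514), Mertk in Micro (1974) followed by Astro (1369), and Gas6 and Abca7 were spread over neurons and glia.

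Among the receptors, Mertk was high in microglia and astrocytes. Its level was 1974 ± 299 CPM (SD, n = 5) in Micro and 1369 ± 356 (n = 8) in Astro. Both means pool the genotypes, and Astro was at 1664 ± 227 CPM in GR-Con and 1073 ± 104 in GR-KO (n = 4 each). Micro was the higher in 5 of 5 libraries that could be compared, with an exact p = 0.0625, which is the smallest that 5 libraries can give (adjusted p = 0.1125). The mean difference over these libraries was 648 CPM, and 62.8 CPM when TMM factors fitted across cell types were applied. It pools genotypes: Micro and Astro were at 1802 and 1694 CPM in the NR GR-Con female and at 2019 and 1661 in the DR GR-Con male. The other libraries compared were GR-KO, with Micro at 1557 to 2292 CPM and Astro at 963 to 1191. The next types were SMC-Peri (150 ± 100, n = 6), Endo (148 ± 47.8, n = 7) and OPC (147 ± 40.3, n = 8), whose levels differed by less than their spread. The lowest non-neuronal mean was 15.0 CPM in Oligo, close to the highest neuronal mean, 15.1 CPM in Pvalb interneurons. The 8 excitatory neuron types had means between 1.49 CPM in L2/3 and 5.02 CPM in L5PT. Per nucleus, after thinning every nucleus to 2000 UMIs, a Mertk UMI was seen in 85.2% ± 6.72 of Astro nuclei (SD, n = 8) and in 94.4% ± 2.28 of Micro nuclei (n = 5). The same share was 0.310% in L2/3 neurons, a type that should lack the receptor. Thinning left out 56 Astro and 513 Micro nuclei of lower depth, and without it the shares were 95.7% in Astro (median 6107 UMIs), 96.9% in Micro (2448) and 2.97% in L2/3 (21863). Mertk was thus counted in most nuclei of both phagocytic glia.

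The other TAM receptors had their own distributions. Axl, the receptor for Gas6 that is linked to vascular and inflammatory cells, was at 50.5 ± 21.3 CPM in SMC-Peri (SD, n = 6) and at 47.8 ± 2.90 in Astro (n = 8). These did not differ beyond their spread: SMC-Peri was higher in 3 of 6 libraries (exact p = 0.625, adjusted p = 0.773). VLMC followed with 21.8 ± 14.7 CPM (n = 7). No neuron type had a mean Axl level above 0.397 CPM. Tyro3, which is also expressed by neurons, was the only TAM receptor whose order was led by Oligo, at 83.3 ± 7.88 CPM (n = 8) against 43.3 ± 4.71 in L6 intratelencephalic neurons (L6IT). Oligo was higher in 8 of 8 libraries (exact p = 0.0078125, adjusted p = 0.0352). L6IT, L5 intratelencephalic (L5IT, 41.0 ± 4.85), L2/3 (34.3 ± 5.40) and L6b neurons (32.6 ± 3.48) followed with ranges that overlapped those of their neighbours. The 5 inhibitory types all had lower Tyro3 means than any of the 8 excitatory types, which ranged from 14.1 to 43.3 CPM. The lowest inhibitory mean, 2.96 CPM in ChC, rested on 0, 0 and 2 UMIs in 3 libraries. Astro was the lowest of the 7 non-neuronal types for Tyro3, at 7.01 CPM.

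Megf10 and Megf11 were high in different glia. Megf10 was at 210 ± 12.1 CPM in Astro (SD, n = 8), with every library between 196 and 232 CPM. Oligo was second at 66.6 ± 15.3 CPM, lower in 8 of 8 libraries (exact p = 0.0078125, adjusted p = 0.0352). VLMC (52.2 ± 26.5, n = 7), Vip interneurons (35.6 ± 10.4, n = 8) and OPC (34.3 ± 7.23, n = 8) came next. Micro held Megf10 at only 1.06 CPM. Megf11 was at 514 ± 76.1 CPM in OPC (n = 8), and VLMC was second at 39.9 ± 27.6 (n = 7). OPC was higher in 7 of 7 libraries (exact p = 0.015625, adjusted p = 0.0469). Astro had the lowest mean of the non-neuronal types for Megf11, 3.65 CPM. Among neurons, Megf11 was highest in L6IT (35.0 ± 15.7), L2/3 (33.1 ± 11.6) and Vip (31.6 ± 10.1), which overlapped.

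The ligands were also unlike each other. Gas6, the ligand shared by the 3 TAM receptors, was broad. L5PT had 123 ± 17.3 CPM (SD, n = 8) and Micro 120 ± 19.3 (n = 5), and their difference did not pass (L5PT was higher in 2 of 5 libraries, exact p = 0.9375, adjusted p = 0.9375). Pvalb interneurons (89.1 ± 6.67), Astro (84.9 ± 16.8) and VLMC (82.2 ± 52.0, n = 7) followed, and Oligo was lowest at 9.67 CPM. Pros1, a vitamin K-dependent ligand known also from blood coagulation, was at 298 ± 43.6 CPM in Micro (n = 5) and 68.3 ± 12.9 in Endo (n = 7), with ranges that did not overlap. Micro was higher in 5 of 5 libraries (exact p = 0.0625, the smallest possible, adjusted p = 0.1125). Neuron types had Pros1 means of at most 11.3 CPM.

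Of the intracellular partners, Gulp1, an adaptor that binds the tails of engulfment receptors, was high in VLMC (232 ± 104 CPM, SD, n = 7), Endo (175 ± 51.3, n = 7), Astro (163 ± 37.7, n = 8) and SMC-Peri (109 ± 60.9, n = 6). VLMC was above Endo in 4 of 7 libraries (exact p = 0.21875, adjusted p = 0.328). Vip interneurons stood out among neurons with 63.9 ± 16.8 CPM, against at most 6.51 CPM in the excitatory types. Abca7, a lipid transporter known as a risk gene for Alzheimer disease, had the flattest order. Its highest mean was 17.3 ± 13.9 CPM in SMC-Peri (n = 6), which was above L6b (14.9 ± 1.84, n = 8) in 2 of 6 libraries (exact p = 0.6875, adjusted p = 0.773), and its lowest was 4.92 CPM in L2/3.

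As a description of these orders, the genes most like each member over the 20 cell types were found by Pearson's r of log2(mean CPM + 1) among 15757 genes that reached 5 CPM in some type. All points share the same 8 libraries, and r carries no p here. For Megf10 the closest genes were Arhgef19 (r = 0.93), Hepacam (0.91) and Folh1 (0.91). For Mertk they were Crlf3 (0.98), Plcb3 (0.98) and Slc25a5 (0.97). Axl was most like Tead3 (0.97) and Oaf (0.96), and Tyro3 most like Dlg1 (0.90), Rasgef1b (0.88) and Rasal1 (0.87). Megf11 was closest to 2010320O07Rik (0.85), Snx22 (0.77) and Tmem255b (0.77), and Pros1 to Fcho2 (0.94) and 9330160F10Rik (0.93). The closest to Gas6 were Nat8l (0.87), Iffo2 (0.83) and Esrra (0.79), those to Gulp1 were Tmem51 (0.92), Itih5 (0.91) and Micall2 (0.90), and those to Abca7 were Cpne3 (0.72), Trpm4 (0.72) and Ptp4a3 (0.71). The lowest of these r values belonged to Abca7.

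To ask which members moved with loss of the receptor in astrocytes, GR-KO was compared with GR-Con by edgeR's likelihood ratio test on UMIs summed per library and cell type, with p-values adjusted by Benjamini-Hochberg over all genes tested in a cell type and a call at an adjusted p under 0.05. Mertk was the member that fell in astrocytes. In NR, its level in Astro was 1928 CPM in the GR-Con male, 1694 in the GR-Con female, 1013 in the GR-KO male and 1191 in the GR-KO female. Both GR-KO libraries were below both GR-Con libraries. The means were 1102 ± 126 CPM in GR-KO and 1811 ± 166 in GR-Con (SD, n = 2 each), a log2 fold change of -0.78 (SE 0.18, adjusted p = 3.373e-04). The adjusted p stayed under the threshold under every alternative tried, between 7.433e-16 and 0.0419, and without any single library. Of the 14493 genes tested in Astro, 7.11% were called in this comparison.

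In DR, Mertk was at 1661 CPM in the GR-Con male, 1374 in the GR-Con female, 963 in the GR-KO male and 1125 in the GR-KO female. The groups did not overlap here either, but with so few libraries a side this was common. It was so for 62 pairs of a member and a cell type in NR and 44 in DR, where 123 and 110 were tested. The share of all genes without overlap is not given, so these counts show nothing particular to the members. The Mertk difference in DR was not called (log2 fold change -0.52, SE 0.23, adjusted p = 0.587) in a comparison with 0.736% of genes called in Astro. When NR and DR were fitted together, with a term for rearing, GR-KO was at 1073 ± 104 CPM and GR-Con at 1664 ± 227 (SD, n = 4 each). That log2 fold change was -0.65 (SE 0.14, adjusted p = 1.795e-04), called under every alternative and in 8 of 8 fits without a library. Its background was 4.79% of 14754 genes called in Astro. The difference between the NR and the DR genotype effects was -0.27 (SE 0.28, adjusted p = 1.00), so a difference between rearings was not shown. Dark rearing itself did not pass for Mertk in Astro, at -0.27 (adjusted p = 1.00) in GR-Con and -0.0012 (adjusted p = 0.999) in GR-KO.

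The same Mertk UMIs were also read per nucleus, which is not separate support for the lower level. In a separate random thinning of the Astro nuclei to 2000 UMIs, the share with a Mertk UMI was 95.6% and 89.4% in the male and female of NR GR-Con and 80.7% and 80.4% in those of NR GR-KO. In DR it was 89.7% and 91.3% in GR-Con and 74.2% and 79.2% in GR-KO. The mean was 3.79 and 3.15 Mertk UMIs per nucleus in NR GR-Con, 1.94 and 2.17 in NR GR-KO, 3.17 and 2.69 in DR GR-Con and 1.82 and 2.16 in DR GR-KO. The 4 GR-KO libraries were below the 4 GR-Con libraries in both measures. Before thinning, the median Astro nucleus held 5587 to 6267 UMIs in NR GR-Con, 8662 to 12124 in NR GR-KO, 5307 to 7199 in DR GR-Con and 4889 to 5227 in DR GR-KO.

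Markers of other cells moved with genotype in NR. Summed over 12 neuron marker genes, neuron RNA in Astro stood at 1485 to 1720 CPM in NR GR-Con and 2575 to 2758 CPM in NR GR-KO. In DR it was 1627 to 2363 CPM in GR-Con and 1684 to 1792 CPM in GR-KO. With nuclei of a low share of these markers only, the NR change of Mertk was -0.69 (adjusted p = 0.00414). The 5 microglia markers, all detected, summed to 32.1 to 37.3 CPM in NR GR-Con and 37.3 to 41.7 CPM in NR GR-KO, and the 5 astrocyte markers to 13439 to 14203 and 11306 to 11637 CPM. The part of these shifts in the Mertk result was not tested beyond that restricted fit.

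**Figure D2:**
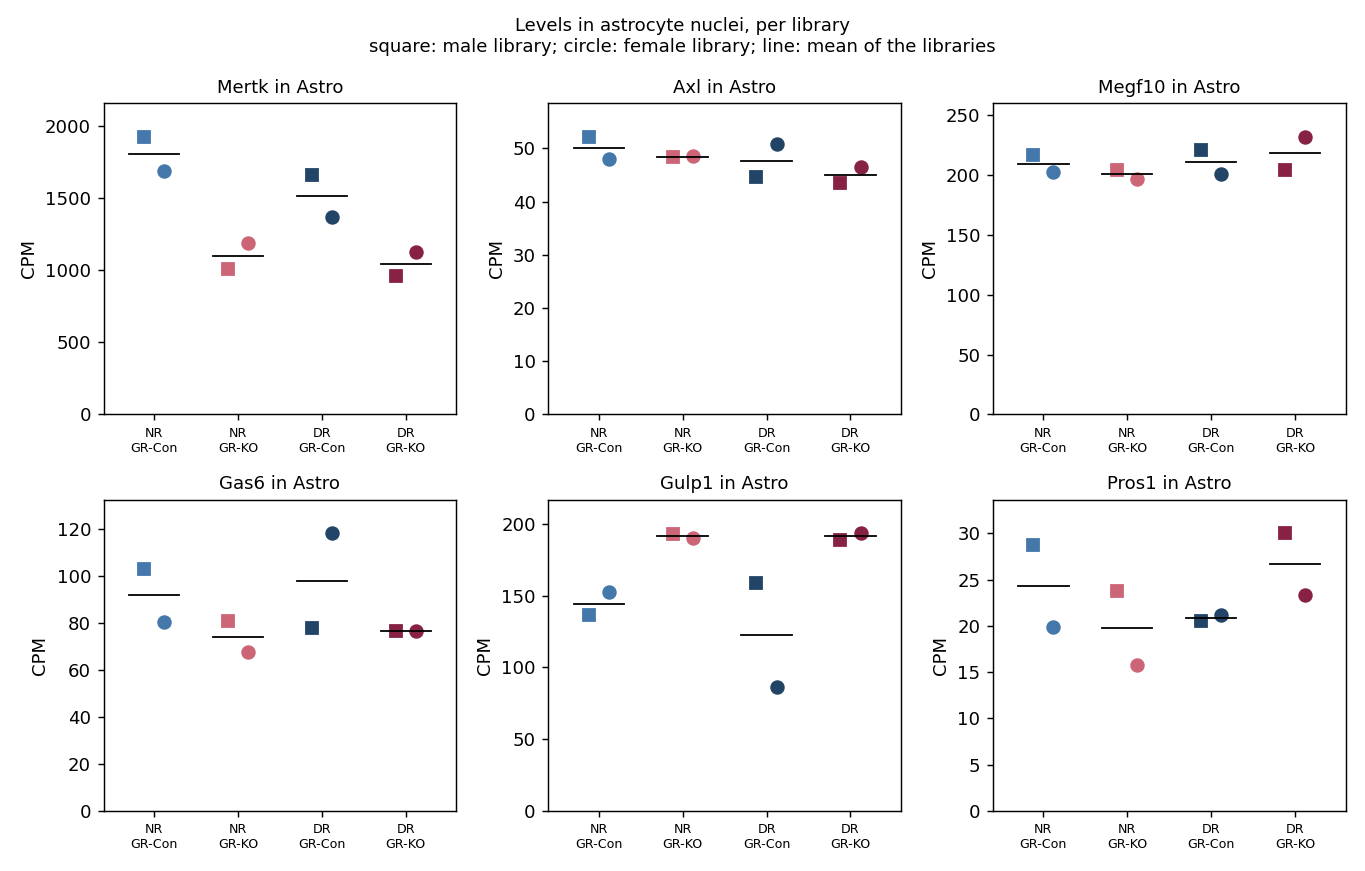
CPM per library (squares, male; circles, female) and group mean (line, n = 2) of 6 genes in Astro nuclei; each y axis starts at 0. Mertk is at 963 to 1191 CPM in the 4 GR-KO libraries and at 1374 to 1928 in the 4 GR-Con libraries, Gulp1 is higher in GR-KO without passing the test, and Megf10 and Axl overlap.

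The other members were not called in Astro in any of the 7 comparisons. Gulp1 was at 137 CPM in the male and 152 in the female of NR GR-Con and at 193 and 190 in NR GR-KO. In DR it was at 159 and 86.4 CPM in GR-Con and at 189 and 194 in GR-KO. All 4 GR-KO libraries were above all 4 GR-Con libraries, where 9 pairs of a member and a cell type did not overlap over both rearings and 114 were tested. For this count too the share over all genes is not given. The log2 fold change of Gulp1 over both rearings, 0.49 (SE 0.18), did not pass (adjusted p = 0.110). The GR-Con female in DR was the lowest of the 8. Gas6 was at 74.0 ± 9.25 CPM in NR GR-KO and 91.6 ± 16.1 in NR GR-Con (SD, n = 2 each), a log2 fold change of -0.38 that did not pass either (adjusted p = 0.218). It was called with a sex term (adjusted p = 0.00254) or in nuclei of a low neuron marker share (adjusted p = 0.0266). Megf10, the other engulfment receptor that is high in astrocytes, was at 200 ± 5.60 CPM in NR GR-KO and 209 ± 9.69 in NR GR-Con, and over 8 libraries its log2 fold change was -0.030 (SE 0.11). Axl differed as little, with 46.7 ± 2.30 CPM in GR-KO and 48.9 ± 3.35 in GR-Con (n = 4 each). Pros1, Abca7, Tyro3 and Megf11 were at 1.92 to 30.0 CPM in Astro and had adjusted p-values of 0.0739 to 1.00 in the 3 genotype comparisons.

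Over all cell types and members, the genotype comparison in NR tested 123 of 153 pairs of a member and a cell type, the others being too low for the filter. It called 5 of the 123, 1 higher and 4 lower in GR-KO, where 0.804% of all gene and cell type pairs were called. The quasi-likelihood F-test called 1 and DESeq2 called 2 of them. Axl passed the filter in 2 cell types only. Outside Astro, 3 of the 5 calls were in L5PT neurons, where 1.44% of genes were called and where 1 library, the NR GR-KO female, was small (59 nuclei). Mertk in L5PT was at 7.46 and 11.8 CPM in the male and female of GR-Con and at 1.76 and 3.33 in those of GR-KO, a log2 fold change of -2.16 (SE 0.41, adjusted p = 1.017e-04). The GR-KO female value rested on 9 UMIs, and the call was lost by the quasi-likelihood F-test (adjusted p = 0.277) and without the GR-Con female (0.161) or the GR-KO male (0.109). The 5 astrocyte markers in L5PT summed to 148 to 158 CPM in NR GR-Con and 102 to 126 CPM in NR GR-KO, and their part in this result was not tested. Pros1 in L5PT was lower in GR-KO by -0.76 (9.90 against 15.7 CPM, adjusted p = 0.0236) and Tyro3 was higher by 0.64 (15.1 against 10.1 CPM, adjusted p = 0.0455). Both calls were lost by the quasi-likelihood F-test, by DESeq2, with a sex term (adjusted p = 0.0578 and 0.131) and without the GR-Con male, the GR-Con female or the GR-KO male. Megf11 in Vip neurons was lower by -0.98 (18.8 ± 4.56 against 37.3 ± 1.66 CPM, adjusted p = 0.0160), and was not called by either other tool (adjusted p = 1.00 each) or without the GR-Con male or the GR-Con female (adjusted p = 1.00 and 0.708).

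In DR, 2 of 110 pairs tested were called, against 0.513% of all pairs, and the quasi-likelihood F-test and DESeq2 called 0. They were Mertk in Lamp5 interneurons and Megf10 in L5PT. Megf10 in L5PT was at 1.14 and 2.43 CPM in GR-Con and, on 3 and 4 UMIs, at 0.306 and 0.343 CPM in GR-KO, a change of -2.40 (adjusted p = 0.0375) that was called in 1 of 4 fits without a library (up to 0.402). Mertk in Lamp5 was at 1.14 CPM (3 UMIs) and 3.76 CPM in the male and female of DR GR-Con and at 11.1 and 10.6 CPM in those of DR GR-KO. In NR the values were 6.80 and 8.40 CPM in GR-Con and 18.8 and 11.2 in GR-KO. All 4 GR-KO libraries were above the 4 GR-Con libraries, which makes it 1 of the 9 pairs without overlap given above. Of all genes tested in Lamp5, 33 of 10971 were called in DR and 11 of 11885 over both rearings. The log2 fold change was 2.11 in DR (SE 0.44, adjusted p = 0.00357) and 1.45 over both rearings (SE 0.30, adjusted p = 0.00382). The first was called in 2 of 4 fits without a library (up to 0.126). The second was not called by DESeq2 (adjusted p = 0.101), by the quasi-likelihood F-test (0.305) or without the NR GR-KO male (0.105). Over both rearings 2 of 114 pairs were called, Mertk in Astro and in Lamp5, against 0.4% of all pairs. For Tyro3, the fitted log2 fold change was above 0 in 15 of 16 cell types in NR and in 13 of 15 over both rearings, with medians of 0.31 and 0.24, but only L5PT in NR was called. In DR it was above 0 in 10 of 15 types, with a median of 0.18. The types share the same libraries and are not independent, and how often other genes have such a run of signs was not tested. Depth also differed: in L2/3, the median nucleus of the male and female held 21295 and 19494 UMIs in NR GR-Con. In NR GR-KO it held 27166 and 37731. The part of depth in the Tyro3 values was not tested.

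**Figure D3:**
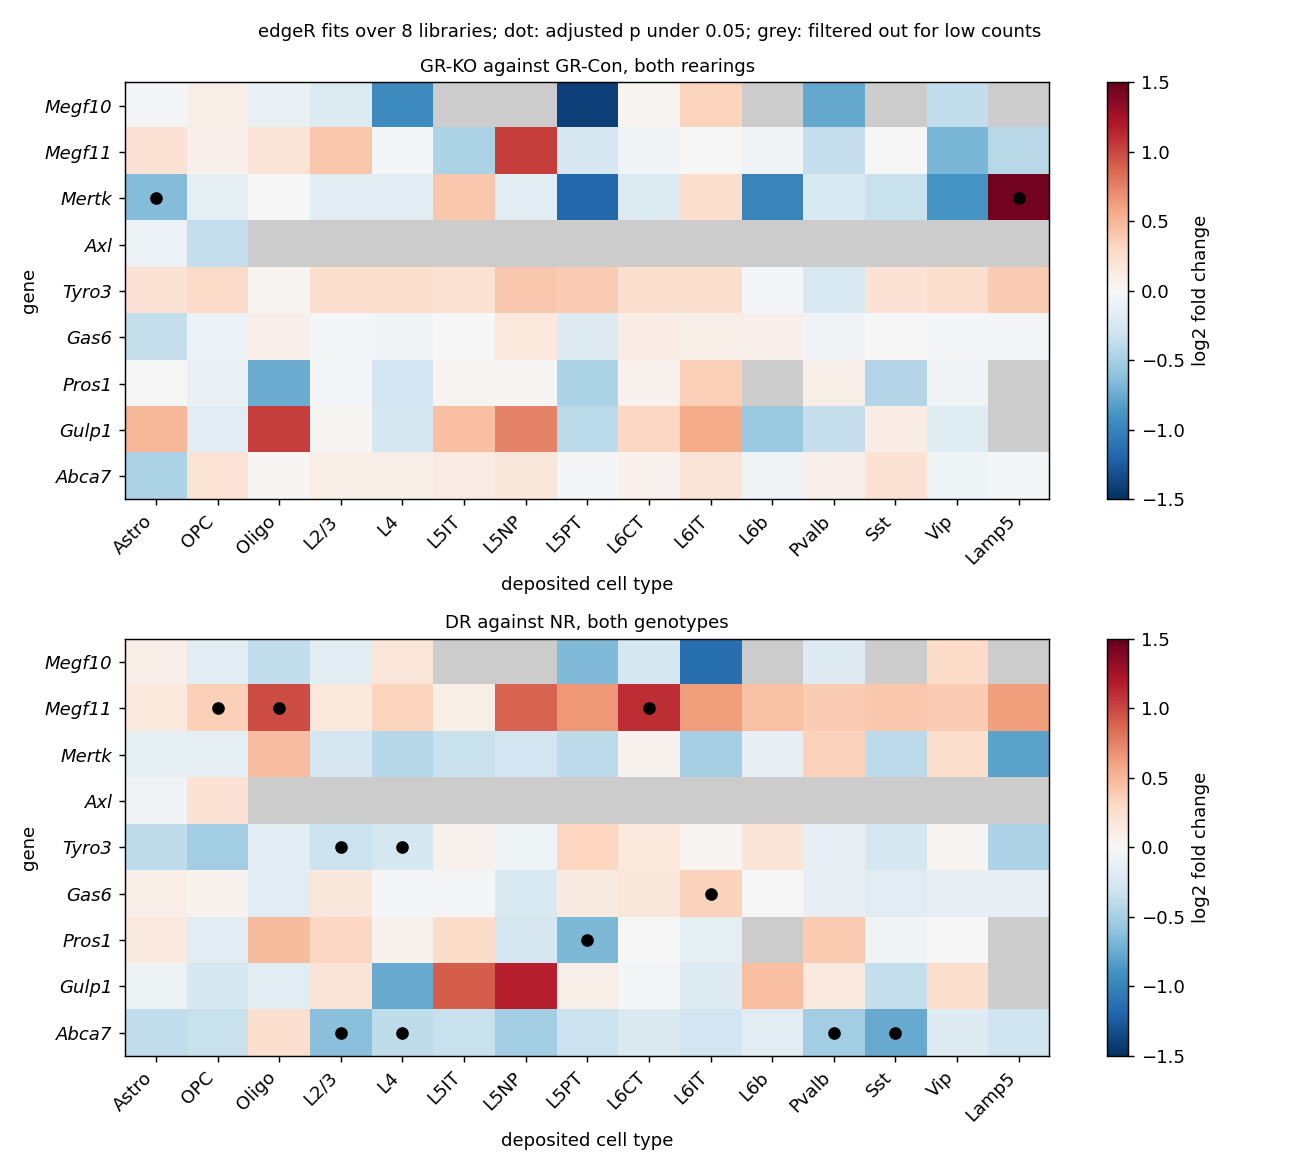
Log2 fold changes from edgeR fits over 8 libraries for the 9 genes in 15 cell types, GR-KO against GR-Con with rearing as a term (top) and DR against NR with genotype as a term (bottom); dots mark an adjusted p under 0.05, grey marks pairs below the count filter, and the colour scale ends at -1.5 and 1.5. The top panel has 2 dots, both for Mertk, and the bottom panel 11, of which 4 are for Abca7 and 3 for Megf11.

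For dark rearing, the fit over both genotypes called members in neurons and in the oligodendrocyte lineage, and Mertk in none. In it 11 of 114 pairs (9.65%) were called, 4 higher and 7 lower in DR, against 5.24% of all pairs. The quasi-likelihood F-test called 5 of the 11 and DESeq2 called 8. Within GR-Con 9 of 113 pairs were called (background 2.25%, quasi-likelihood F-test 2, DESeq2 4), and within GR-KO 9 of 124 (background 3.66%, quasi-likelihood F-test 3, DESeq2 4). These fits share libraries, so their values are given side by side and are not independent.

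Abca7 fell in 4 neuron types. In L2/3, the male and female levels were 5.87 and 5.95 CPM in NR GR-Con and 5.82 and 6.20 in NR GR-KO, against 3.41 and 3.92 in DR GR-Con and 4.38 and 3.82 in DR GR-KO. The 4 DR libraries were below the 4 NR libraries, on 223 to 476 UMIs per library. Between rearings, 11 pairs of a member and a cell type did not overlap over both genotypes and 114 were tested. The share over all genes is not given. The log2 fold change was -0.62 (SE 0.13, adjusted p = 4.333e-05, at most 0.00774 under the alternatives). It was -0.73 within GR-Con (adjusted p = 0.00363) and -0.51 within GR-KO (adjusted p = 0.103), and the difference between these was not called (adjusted p = 0.994). In L4, NR libraries were at 10.4 to 11.8 CPM and DR libraries at 8.05 to 8.52, a log2 fold change of -0.38 (SE 0.096, adjusted p = 0.00218). Both calls held in 8 of 8 fits without a library, in types where 15.9% (L2/3) and 9.6% (L4) of genes were called.

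Abca7 in Pvalb interneurons was at 15.8 ± 2.78 CPM in NR and 10.9 ± 1.13 in DR (SD, n = 4 each), with a log2 fold change of -0.52 (SE 0.16, adjusted p = 0.0317). In Sst interneurons it was at 10.8 ± 2.70 and 6.24 ± 0.529 CPM, a change of -0.75 (SE 0.20, adjusted p = 0.0259). These stood in types where 490 of 14867 genes (Pvalb) and 140 of 13951 (Sst) were called. Neither Abca7 change was called by the quasi-likelihood F-test (adjusted p = 0.0902 and 0.160) or by DESeq2 (0.0676 and 0.115), and each was lost in 5 of 8 fits without a library, with adjusted p-values of up to 0.198 and 0.212. Over the 15 cell types fitted, which share the same libraries and are not independent, 14 had a negative log2 fold change, with a median of -0.33. How often other genes have such a run of signs was not tested. Oligo was the exception at 0.24, and L5NP, at -0.52, missed the threshold (adjusted p = 0.0560).

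**Figure D4:**
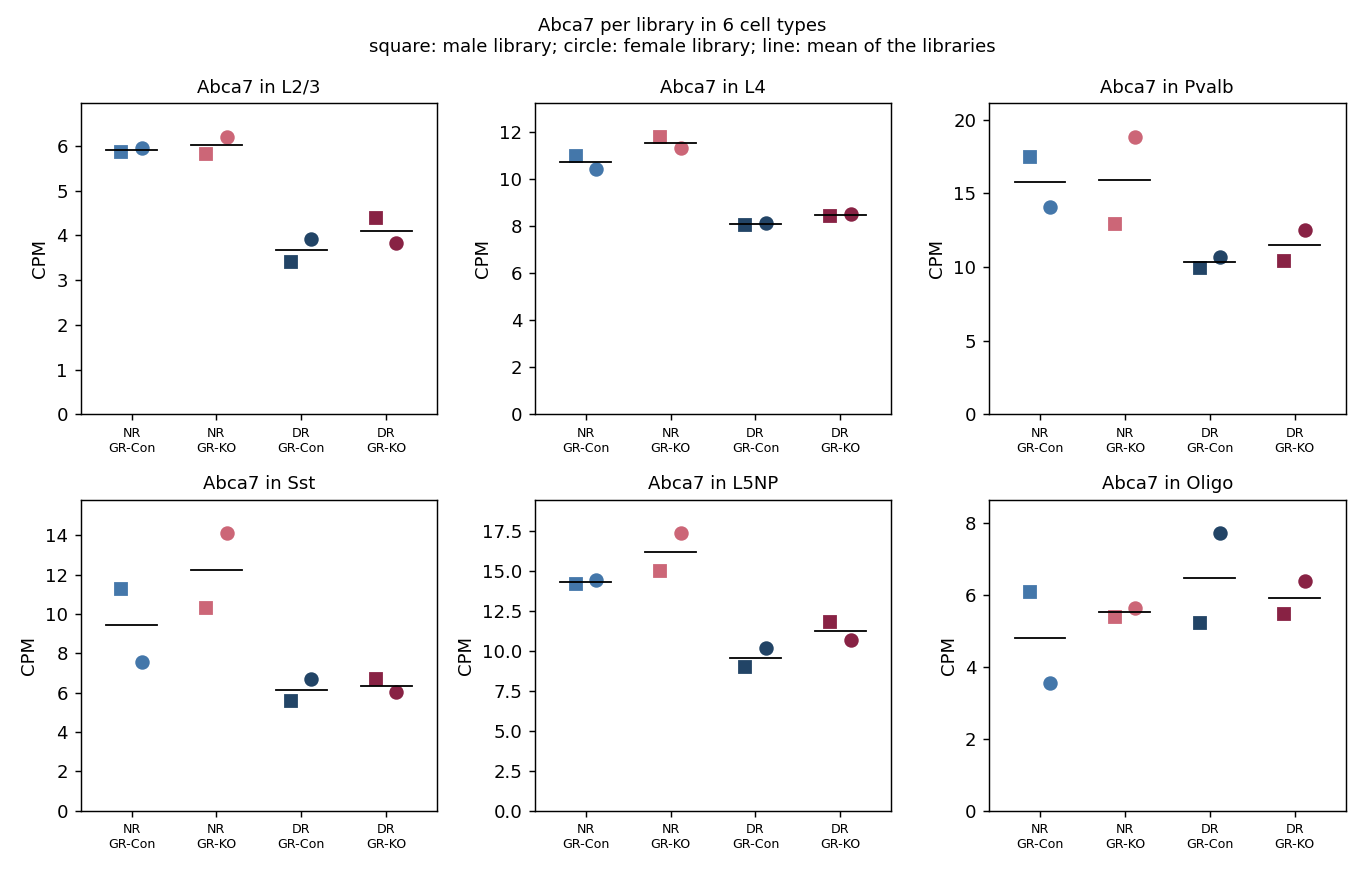
Abca7 CPM per library (squares, male; circles, female) and group mean (line, n = 2) in 6 cell types; each y axis starts at 0. In L2/3 the 4 NR libraries lie at 5.82 to 6.20 CPM and the 4 DR libraries at 3.41 to 4.38, and L2/3, L4, Pvalb and Sst passed the test while L5NP and Oligo did not.

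Megf11 moved the other way. In OPC, where it is highest, the male and female levels were 441 and 475 CPM in NR GR-Con, 432 and 478 in NR GR-KO, 575 and 490 in DR GR-Con and 644 and 580 in DR GR-KO. The 4 DR libraries were above the 4 NR libraries, by 0.36 on the log2 scale (SE 0.099, adjusted p = 0.0231). The call was lost in nuclei of a low neuron marker share (0.35, adjusted p = 0.102) and in 6 of 8 fits without a library (up to 0.167), in a type with 2.02% of genes called. In Oligo, Megf11 was at 9.90 to 19.5 CPM in NR and 21.3 to 39.0 in DR, a log2 fold change of 0.98 (SE 0.23, adjusted p = 0.00263) that was called in 8 of 8 fits without a library. It was not called by the quasi-likelihood F-test (adjusted p = 0.0592) or in nuclei of a low neuron marker share, where it was 0.68 (adjusted p = 0.354). Within GR-KO the change was 0.47 in OPC (adjusted p = 0.0283) and 1.32 in Oligo (adjusted p = 4.065e-04), and within GR-Con it was 0.24 (adjusted p = 0.963) and 0.59 (adjusted p = 0.542). The GR-KO call in OPC was lost in nuclei of a low neuron marker share (adjusted p = 0.198) and in 3 of 4 fits without a library (up to 0.455), and that in Oligo by the quasi-likelihood F-test (0.0642) and in 1 of 4 such fits (0.0659).

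In L6 corticothalamic neurons (L6CT) Megf11 was at 4.25 to 6.70 CPM in NR and 6.55 to 19.4 in DR, with ranges that overlapped (log2 fold change 1.10, SE 0.33, adjusted p = 0.00979, and 0.0645 by the quasi-likelihood F-test). That call held in 5 of 8 fits without a library (adjusted p of up to 0.0983). All 15 cell types fitted had a positive log2 fold change, with a median of 0.41, and 3 were called. These types share the same libraries and are not independent, and how often other genes have such a run of signs was not tested. Over all genes, 12.5% were called in L6CT and 3.82% in Oligo. The 12 neuron markers in Oligo summed to 1721 to 2394 CPM in NR GR-KO and to 923 to 1592 CPM in the other groups. The 3 OPC markers in Oligo summed to 295 to 343 CPM in NR and 261 to 296 CPM in DR. The part of the OPC markers in the Megf11 result was not tested.

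**Figure D5:**
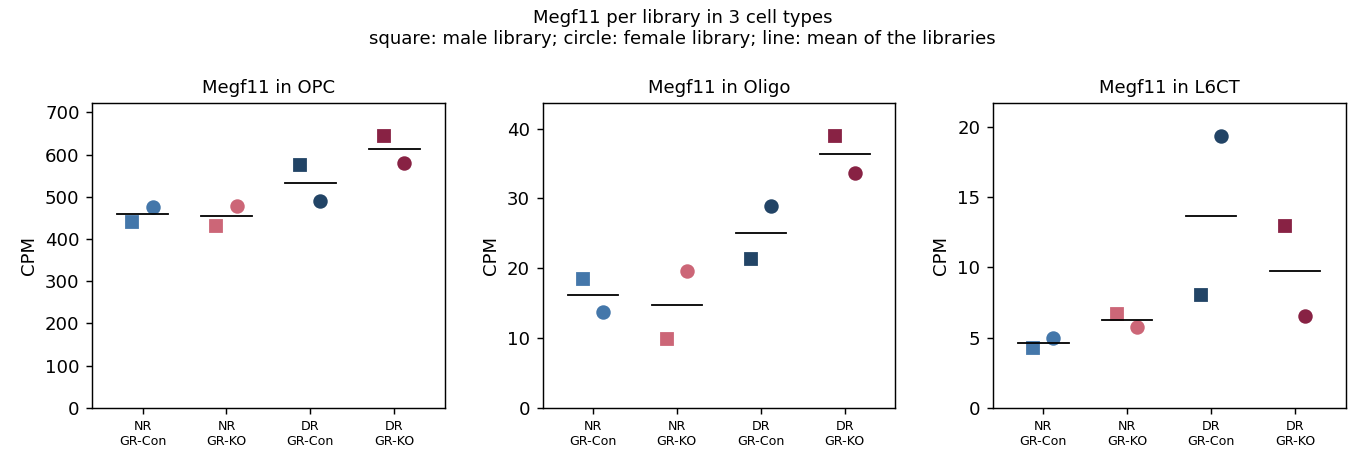
Megf11 CPM per library (squares, male; circles, female) and group mean (line, n = 2) in OPC, Oligo and L6CT; each y axis starts at 0. DR libraries lie above NR libraries in OPC (490 to 644 against 432 to 478 CPM) and in Oligo, and in L6CT the lowest DR library (6.55) is below the highest NR library (6.70).

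The other rearing calls over both genotypes were for Tyro3, Gas6 and Pros1. Tyro3 fell in L2/3 (30.5 ± 3.88 against 38.1 ± 3.91 CPM, SD, n = 4 each, log2 fold change -0.32, adjusted p = 0.0127) and in L4 (28.2 ± 4.30 against 34.6 ± 1.93, -0.27, adjusted p = 0.0452). Both had overlapping ranges, and they were called in 4 and 1 of 8 fits without a library (adjusted p of up to 0.0905 and 0.238). Gas6 in L6IT was at 49.0 to 60.5 CPM in DR and 38.2 to 45.3 in NR (0.34, adjusted p = 0.0188), called in 3 of 8 fits without a library (up to 0.165). Pros1 in L5PT was at 7.79 ± 1.82 CPM in DR and 12.8 ± 3.63 in NR (-0.67, adjusted p = 0.0307), called in 2 of 8 (up to 0.212). Gas6 in L6IT was not called by the quasi-likelihood F-test (adjusted p = 0.0511), nor was Pros1 in L5PT (0.130), which DESeq2 did not call either (0.0582). The calls of these 4 pairs were thus lost without particular libraries, while their direction was the same in all 8 of these fits.

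Within GR-Con, Gulp1 rose in L5IT neurons. It was at 0.824 CPM (7 UMIs) and 1.31 CPM (11 UMIs) in the male and female of NR and at 5.77 CPM (76 UMIs) and 5.13 CPM (75 UMIs) in DR, a log2 fold change of 2.34 (SE 0.37, adjusted p = 3.394e-08). It was called under every alternative, at most at 0.0220, in a type where 6.14% of genes were called. GR-KO did not show it: the male and female were at 6.43 and 1.51 CPM in NR and at 4.31 and 1.67 CPM in DR (log2 fold change -0.42, adjusted p = 0.940). The difference between the genotypes, 2.76 (SE 0.92), did not pass (adjusted p = 0.163). In both GR-KO groups the male was the higher library, and reads of 3 genes that overlap Gulp1 on its strand could not be told apart from these values. The other GR-Con calls were Abca7 in L2/3, L5PT (-0.64, adjusted p = 0.0214) and Pvalb (-0.62, 0.0444), Megf11 in L5PT (1.10, 0.0169) and L6CT (1.56, 0.0166), Mertk in L5PT (-1.09, 0.00582), Pros1 in L5PT (-0.88, 1.021e-04) and Megf10 in Sst (-2.40, 0.0434). Megf10 in Sst rested on 2 and 3 UMIs in DR and 9 and 11 in NR, and was called in 0 of 3 fits without a library (adjusted p of up to 0.248). Abca7 in Pvalb was called in 0 of 4 such fits (up to 0.845), and not with a sex term (0.0504) or by DESeq2 (0.534). Abca7 in L2/3 and L5PT and Megf11 in L6CT were each called in 2 of 4, and Megf11 and Mertk in L5PT in 1 of 4 (up to 0.720 over these 5). Of these 8, the quasi-likelihood F-test called Pros1 in L5PT (adjusted p = 0.0474), and Pros1 was not called without the NR GR-Con male (0.172).

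Within GR-KO, the calls included 4 for Mertk outside astrocytes. Mertk in Oligo was at 9.24 and 11.3 CPM in the male and female of NR and at 22.8 and 18.8 in DR (log2 fold change 1.03, SE 0.20, adjusted p = 5.383e-05), also called by the quasi-likelihood F-test (0.0420) and DESeq2 (0.0212) but not in nuclei of a low neuron marker share (0.254) or without the DR GR-KO male (0.0659). In GR-Con the same comparison gave -0.16 (adjusted p = 0.999), and the difference between genotypes did not pass (adjusted p = 0.0915). Mertk was higher in DR in Pvalb (0.83, adjusted p = 0.0115) and lower in L2/3 (-0.83, 0.0338) and L6IT (-1.66, 0.00467). In L2/3 it was at 1.00 CPM in DR and 1.84 in NR, while the 5 astrocyte markers there summed to 260 to 287 CPM in DR GR-KO and 312 to 324 CPM in NR GR-KO, and their part in the result was not tested. None of these 3 Mertk changes was called by the quasi-likelihood F-test (adjusted p = 0.0870, 0.0844 and 0.118). By DESeq2, Mertk was called in L6IT (0.0270) and not in L2/3 (0.0823), and Pvalb had no adjusted p. Each of the 3 calls was also lost in some of the fits without a library. Axl and Gulp1 were higher in VLMC of DR GR-KO (1.69, adjusted p = 0.0168, and 1.05, adjusted p = 0.00455). Axl there rested on 5 and 6 UMIs in NR and 10 and 11 in DR, and 19.9% of genes tested in VLMC were called. Axl was not called by the quasi-likelihood F-test (adjusted p = 0.0648) or in any of 4 fits without a library (up to 0.312). Gulp1 was not called by DESeq2 (adjusted p = 0.130) and was called in 1 of 4 fits without a library (up to 0.106). The remaining calls were Gas6 in L6IT (0.46, adjusted p = 0.0232, but 0.0765 by the quasi-likelihood F-test and 0.0610 by DESeq2) and Megf11 in OPC and Oligo. That of Gas6 was also lost in some of the fits without a library.

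The test of the difference between the genotype effects in NR and DR called 0 of 114 pairs by edgeR's likelihood ratio test, and 23 had an unadjusted p under 0.05. The quasi-likelihood F-test and DESeq2 also called 0, and over all genes 0.181% of pairs were called. The nearest to the threshold among the pairs described above was Mertk in L5PT (-1.78, SE 0.50, adjusted p = 0.0756).

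The rest of the engulfment pathway was followed in Astro with a list of 68 genes in 8 sublists: other receptors, opsonins, phosphatidylserine exposure, engulfment signalling, phagosome and lysosome, TAM receptor signalling, gamma-carboxylation of the ligands and inhibitory signals. This list, too, was chosen with earlier results of these data known. Of the 54 tested in NR, 5 were higher and 3 lower in GR-KO (background 7.11%), with a median log2 fold change of -7.9e-05 against 0.0013 over all genes. Over both rearings 1 of 55 was higher and 2 were lower (background 4.79%), and in DR 0 of 52 were called by edgeR's likelihood ratio test (background 0.736%). Itgav, the integrin αV chain that binds opsonins on apoptotic membranes, fell from 183 ± 10.7 CPM in NR GR-Con to 111 ± 5.29 in NR GR-KO (SD, n = 2 each, log2 fold change -0.79, SE 0.14, adjusted p = 7.520e-07). Over both rearings its change was -0.76 (SE 0.12, adjusted p = 1.829e-07). Pik3r1, a regulatory subunit of PI3-kinase, fell by 0.80 on the log2 scale (426 ± 30.9 to 255 ± 18.4 CPM, adjusted p = 3.847e-05) and by 0.67 over both rearings (adjusted p = 1.048e-05). Stab2, a scavenger receptor, was at 1.71 against 4.44 CPM (-1.47, adjusted p = 0.0121). Atp8a1, a flippase that keeps phosphatidylserine on the inner leaflet, rose from 206 ± 23.3 to 339 ± 17.0 CPM (0.66, SE 0.16, adjusted p = 0.00161) and by 0.59 over both rearings (adjusted p = 1.400e-05). Its mean was up to 656 CPM in an excitatory type and 776 CPM in Micro, both above its level in Astro. Xkr4, a scramblase family member, rose from 34.5 to 75.7 CPM (1.07, adjusted p = 7.882e-08) and Edil3, a phosphatidylserine-binding secreted protein, from 25.1 to 47.2 CPM (0.85, adjusted p = 1.068e-04). Their means reached 2438 and 905 CPM in an excitatory type. Atp8a1, Xkr4 and Edil3 rose in NR GR-KO, where the neuron markers in Astro were also higher. The part of those markers in these results was not tested beyond fits in nuclei of a low neuron marker share, which are not reported here. Xkr4 was the only gene of the list called for a difference between the genotype effects in NR and DR (1.58, SE 0.36, adjusted p = 0.00598), where the background in Astro was 0.386%.

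Dark rearing called few genes of this list in Astro. Within GR-Con 0 of 54 were called by edgeR's likelihood ratio test, with a background of 0.147% of genes in Astro. Within GR-KO, with a background of 2.85%, 0 were higher and 3 lower in DR, namely Xkr4 (-0.83, adjusted p = 6.134e-07), Edil3 (-0.79, 2.571e-04) and Elmo1, an activator of Rac signalling in engulfment (-1.06, 2.664e-04). Elmo1 was at 4738 CPM in Micro, at up to 259 CPM in an excitatory type and at 18.6 CPM in Astro of NR GR-KO. The neuron markers in Astro were also lower in DR GR-KO than in NR GR-KO. Their part in these 3 results was not tested beyond fits in nuclei of a low neuron marker share, which are not reported here. Over both genotypes, with a background of 0.935%, 1 of 55 was called, Vkorc1, an enzyme of the vitamin K cycle that gamma-carboxylation of Gas6 and Pros1 needs, at 1.16 CPM in DR and 2.57 in NR (-1.10, adjusted p = 0.0389).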

How the data were processed

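The data were 10x 3' single-nucleus libraries (kit v4) of V1 from 8 mice. As the study's methods state, the authors ran Cell Ranger 8.0.1 against mm10 with the viral EGFP sequence added, used Seurat 5.3.0, removed doublets with DoubletFinder, clustered nuclei and dropped clusters without marker genes. The authors deposited raw UMI counts for each gene in each nucleus, and a cell table with the library, sex, rearing, vector, cell type and the percent of mitochondrial UMIs deposited per nucleus. Another 52 columns with embedding values were not used. Library names give group and sex but no replicate number, and with 1 male and 1 female per group the p-values measure the spread between these mice, sex included.

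Counts were summed per library and deposited cell type, the animal being the replicate, and scaled to CPM by the total of that sum. Fits were made for cell types with 10 or more nuclei in every library compared. Fits used edgeR 4.0.16 in R 4.3.3 (filterByExpr, TMM, estimateDisp, glmFit and the two-sided likelihood ratio test of the study's methods), with Benjamini-Hochberg adjustment over all genes tested in the type and a call at an adjusted p under 0.05. The 7 comparisons were those of genotype (in NR, in DR, over both), those of rearing (in GR-Con, in GR-KO, over both) and their interaction. The SE was taken as the absolute log2 fold change divided by the root of the likelihood ratio statistic. Alternatives were the quasi-likelihood F-test, DESeq2 1.42.0, RLE factors, no count filter, a sex term, 1 fit over 8 libraries, nuclei with a low share of 12 neuron marker genes and leaving out each library. Shares of nuclei were computed after thinning each nucleus to 2000 UMIs. The tests were also tried on simulated counts, but the outcome is not reported here and gives no support to the calls. Genes were named by rule: all 9 members, the 3 genes most like each over cell types (for Axl and Pros1, 1 of the 3 is not reported here), and up to 3 called genes of the pathway list per direction with the smallest adjusted p in astrocytes. The members and lists were chosen with earlier results of these data known. Intervals between libraries cover 2 to 4 animals per side. Coordinates are from GENCODE vM21 on GRCm38 by symbol.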

Additional observations from a re-analysis of the deposited data

How the results depend on the processing

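The fall of Mertk in Astro with GR-KO, in NR and over both rearings, kept its direction and its call under every alternative, as did the fall of Abca7 in L2/3 with DR over both genotypes. Counts of called members depended more on the processing, and the cause was not tested. The share of all genes called under each alternative is not given here. The changes in these counts therefore cannot be read as particular to the members. For genotype in NR, 5 pairs of a member and a cell type were called, against 2 with 1 fit over 8 libraries, 2 by DESeq2, 1 by the quasi-likelihood F-test and 13 with a sex term. In DR the 2 called became 0 by DESeq2, 0 by the quasi-likelihood F-test, 1 without a count filter and 6 with a sex term, and over both rearings the 2 became 1 by each of the other tools. The interaction had 0 calls and 2 with a sex term. For rearing in GR-Con the 9 called became 4 by DESeq2 and 2 by the quasi-likelihood F-test. In GR-KO the 9 became 4 with 1 fit, 4 by DESeq2, 5 in nuclei of a low neuron marker share, 3 by the quasi-likelihood F-test and 16 with a sex term, and over both genotypes the 11 became 5 by the quasi-likelihood F-test.

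Leaving out 1 library moved these counts too, where a lone library was assumed to vary like the others. The share of all genes called in each reduced fit is not given, so these ranges cannot be read as particular to the members. The genotype count in NR ranged from 2 (without the GR-Con male) to 9 (without the GR-KO male or female), with 3 without the GR-Con female. In DR it ranged from 0 (without the GR-KO male) to 11 (without the GR-Con male), with 9 without the GR-Con female, and over both rearings from 1 (without the NR GR-KO male) to 4 (without the DR GR-Con male or female or the DR GR-KO female). The interaction ranged from 0 to 6 (without the DR GR-Con male), with 3 without the DR GR-Con female or the NR GR-KO male, 2 without the NR GR-KO female and 1 without either NR GR-Con library. The rearing count ranged in GR-Con from 2 (without the NR female) to 16 (without the DR male), with 4 without the NR male, in GR-KO from 2 (without the DR male) to 20 (without the NR male), and over both genotypes from 4 (without the DR GR-KO male) to 14 (without the NR GR-KO male), with 5 without the NR GR-Con male or the NR GR-KO female, 6 without the DR GR-Con male and 7 without the DR GR-KO female. Of the 9 members, 3 had a called highest cell type, and 0 to 3 without a library, since 7 libraries allow no smaller exact p than 0.015625.

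The results that changed sign were not called. Mertk in Astro with DR in GR-KO was 0.0028 with 1 fit, 4.547e-04 by DESeq2 and 4.119e-04 with RLE factors, and -0.14 to 0.13 without a library. The interaction of Gulp1 in Astro ranged from -0.86 to 0.066. Axl in SMC-Peri minus Astro, 3.95 CPM, was -0.012 on log2(CPM + 1), -0.016 on log2(CPM + 0.1), -7.17 CPM with TMM factors and -2.71 to 10.7 CPM without a library. Abca7 in SMC-Peri minus L6b, 2.71 CPM, was -0.40, -0.94 and -4.72 in the same order and -1.82 to 5.76 without a library. Gas6 in L5PT minus Micro, -0.35 CPM, was 62.1 with TMM factors and -10.2 to 9.46 without a library. Depth set the share of Astro nuclei with a Mertk UMI, which in the thinning over all cell types was 85.2% at 2000 UMIs (83.7% to 86.5% without a library), 66.1% at 1000 and 95.7% without thinning. No paired analysis was possible by the replicate numbers of the labels, because the cell table gives each library's sex and not its number. The fits with a sex term, above, pair the libraries by sex.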

Other observations

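Among Astro nuclei of the 4 GR-KO libraries, those with at least 1 Cre UMI were set beside those without, a split chosen after the data were seen and given without a test. In the NR GR-KO male, Mertk was at 854 CPM in 68 nuclei with Cre and at 1025 CPM in 856 without. In the NR GR-KO female it was at 978 CPM in 37 nuclei and at 1201 CPM in 943. In the DR GR-KO male it was at 882 CPM in 53 nuclei and at 967 CPM in 1046, and in the DR GR-KO female at 944 CPM in 42 nuclei and at 1131 CPM in 1317. Gulp1 was higher in nuclei with Cre in 1 of the 4, at 255 against 186 CPM in the DR GR-KO male, and Megf10 in 2 of the 4. Nuclei with Cre made up 3.09% to 7.36% of Astro nuclei, and a nucleus without a Cre UMI may still have carried the vector. A Cre UMI does not show that a nucleus was transduced either: the same libraries had one in 4.15% of L2/3 and 5.83% of L4 nuclei, and in 0.149% to 0.167% of Oligo, OPC and Micro nuclei.

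The ligands in Micro, which entered no comparison of genotype or rearing, were read in the 5 libraries with at least 10 nuclei. Pros1 was at 359 CPM in the NR GR-Con female, 310 in the NR GR-KO female, 307 in the DR GR-Con male, 268 in the DR GR-KO male and 246 in the DR GR-KO female. Gas6 in the same libraries was at 135, 127, 138, 100.3 and 97.6 CPM. Mertk was at 1802, 1557, 2019, 2292 and 2201 CPM.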
